A study of Mus musculus with 6 samples.

Results

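Autophagy genes encode the machinery that wraps parts of the cytoplasm in a double membrane, the autophagosome, and delivers them to the lysosome. A list of 42 such genes was picked by symbol out of the 28043 genes in the tables, and all 42 were found and tested. They were compared in primary cells of the mouse retinal pigment epithelium (RPE), taken from eye, in 3 libraries labelled Normal and 3 labelled PVR (proliferative vitreoretinopathy, scarring inside the injured eye). The labels give the treatment as normal or PVR. The labels do not state strain, age, time after injury, the way PVR was produced, or whether the cells were cultured. Whether replicates were separate animals is not stated, so the p-values speak only of the spread among these 6 libraries, and that spread may be technical. The title of the series concerns RANK-NFATc1 signalling after eye trauma.

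In autophagy, the ULK1 kinase complex starts the process, membrane and a lipid signal are supplied at the growing site, and a conjugation system fixes small ATG8 proteins (the LC3 and GABARAP families) to the membrane. Cargo receptors such as p62 bind both ATG8 proteins and the material to be removed. In the RPE, a post-mitotic layer that takes up shed photoreceptor outer segments every day, autophagy clears damaged organelles, and LC3 is also attached to phagosomes that hold outer segments, with the help of Rubicon. Much of this regulation acts on proteins, through phosphorylation, lipid attachment and degradation, and messenger levels do not report it.

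Libraries held between 15269983 and 19173187 reads, and the members had between 47 and 21013 reads in a library. Values are normalised read counts. Log2 changes (PVR minus Normal) were estimated from log2(normalised count + 1), with limma's standard error (SE), and a gene is said to have risen or fallen where limma's p, adjusted over all 15766 tested genes, was under 0.05. In whole-tissue or bulk RNA, fewer cells of a type and less RNA per cell cannot be told apart. Of 11 fixed markers of RPE, 6 fell, among them Rpe65, the visual cycle isomerase, from 86793 to 31775 normalised counts, and Best1 was near the limit of detection in both groups (10.3 to 13.6 in Normal, 7.56 to 22.8 in PVR). Of 20 macrophage and microglia markers 19 rose. Of 8 fibroblast and stromal markers 7 rose and 1, Fap, fell from 6765 to 4029 (limma adjusted p = 0.00102). Of 7 tested Mueller glia and astrocyte markers 2 rose (Vim and Dkk3) and 1 fell. The 1 that fell, Rlbp1, is also counted among the 6 RPE markers that fell. Of 11 tested photoreceptor markers and 8 endothelial markers 0 were called. The summed photoreceptor markers varied among libraries, at 200, 1131 and 477 in Normal and 384, 1114 and 946 in PVR (replicates 1, 2 and 3).

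Most of the machinery showed small differences. Of the 42 autophagy genes 5 rose in PVR (Atg2a, Vmp1, Map1lc3b, Gabarapl1 and Sqstm1), 2 fell (Map1lc3a and Calcoco1) and 35 did not pass the test. The count of 5 was 3 without Normal replicate 2 and 2 without Normal replicate 3. The called share was 16.7%, with 11.9% higher and 4.76% lower, beside 30.8% of all tested genes, 17.9% higher and 12.9% lower. None of the 42 both passed the test and changed at least 2-fold, beside 15.2% of all tested genes. The Normal and PVR libraries did not overlap for 16 members, or 38.1% (11 with PVR above and 5 with PVR below), beside 48.0% of all tested genes, 24.7% with PVR above and 23.3% with PVR below. The median log2 change of the members was 0.07, beside -0.02 over all tested genes, and the median size of the change regardless of sign was 0.19, beside 0.37. For 39 members (92.9%) the 95% interval of the difference lay within 2-fold in either direction, beside 56.4% of all tested genes. The exceptions were Atg16l2, Map1lc3a and Sqstm1. The members' SEs were also smaller, with a median of 0.12 beside 0.18.

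**Figure D1:**
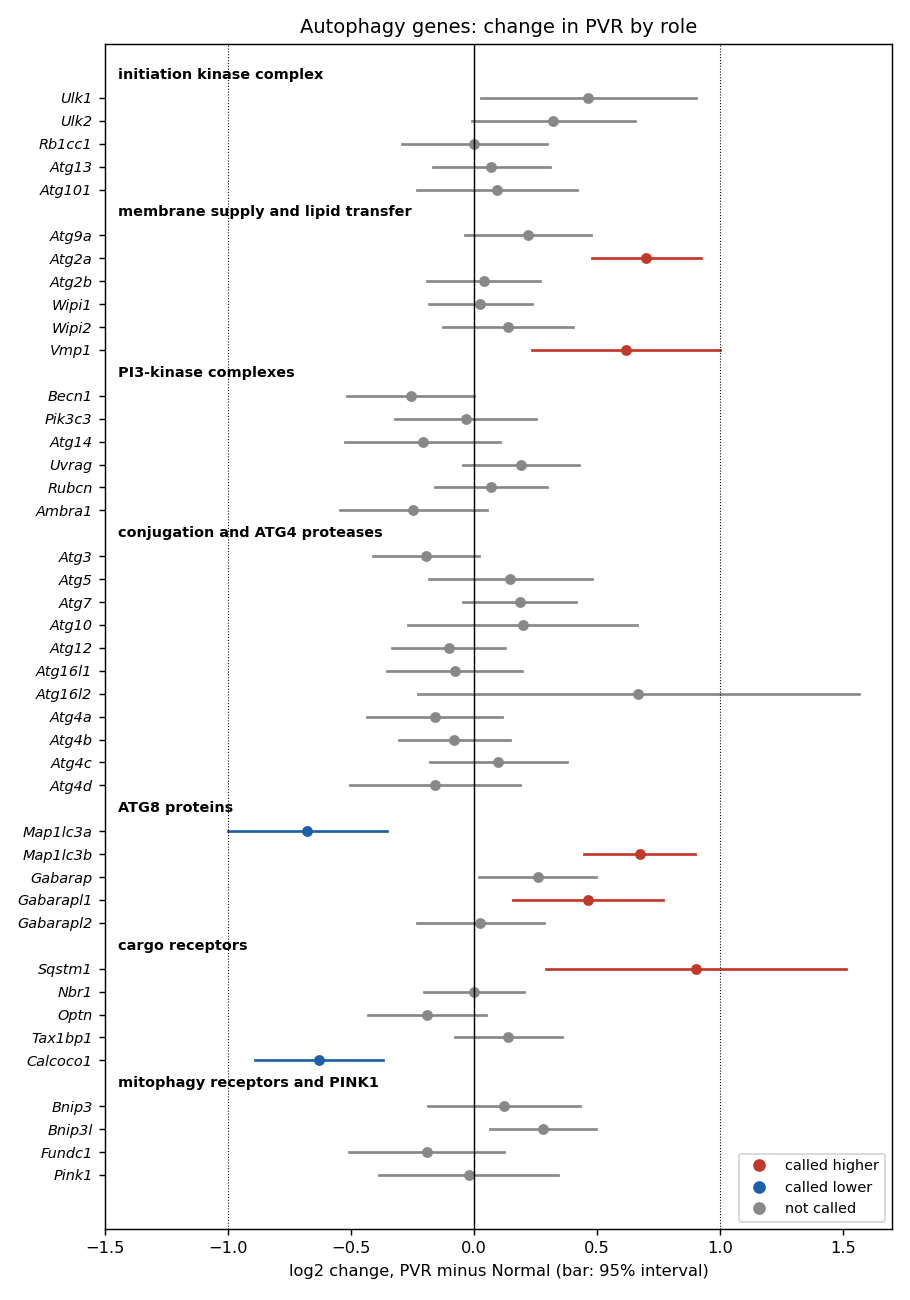
Log2 change (PVR minus Normal, x axis) of each of the 42 autophagy genes, grouped by role on the y axis, where points are limma estimates, bars are 95% intervals and colour gives the call. The 5 genes that rose and the 2 that fell lie in the membrane supply, ATG8 and cargo receptor groups, and Sqstm1 has the largest estimate at 0.90.

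The sequences just before the start sites of called genes are shown, and their part in the calls was not tested. Starts and sequences are from RefSeq on GRCm38.p6 (the assembly also called mm10), and 35 of the 42 genes had an entry, in 42 windows that run from 250 bases before to 50 bases after a start. Atg12, Atg16l1, Becn1, Bnip3l, Map1lc3a, Pik3c3 and Rb1cc1 had none. Each sequence below is a stretch of 100 bases, read 5′ to 3′ on the gene's own strand, that ends 1 base before the RefSeq start in Atg2a, Vmp1, Calcoco1 and Atg5, 33 bases before it in Gabarapl1, 78 in Map1lc3b and 90 in Sqstm1. Vmp1 has 3 RefSeq starts, of which 2 are shown, the outermost and one chosen because its stretch holds a motif match. Atg5, which did not pass the test, is shown for contrast in its call only. It is 1 of the 6 genes, of 35 with an entry, whose window holds the motif CACGTG described below. Capitals mark a motif match. The stretches lie at chr19:6241568-6241667 (plus strand, Atg2a), chr11:86683837-86683936 (minus strand, Vmp1, before the annotated start of the gene), chr11:86683524-86683623 (minus strand, Vmp1, before a start inside the gene's annotated span), chr8:121590261-121590360 (plus strand, Map1lc3b), chr6:129533060-129533159 (plus strand, Gabarapl1), chr11:50210910-50211009 (minus strand, Sqstm1), chr15:102722179-102722278 (minus strand, Calcoco1) and chr10:44268239-44268338 (plus strand, Atg5).
Atg2a: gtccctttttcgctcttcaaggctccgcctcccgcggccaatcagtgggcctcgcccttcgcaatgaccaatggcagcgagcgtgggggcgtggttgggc
Vmp1, outer start: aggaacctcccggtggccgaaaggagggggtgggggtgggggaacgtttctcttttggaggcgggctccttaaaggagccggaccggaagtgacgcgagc
Vmp1, inner start: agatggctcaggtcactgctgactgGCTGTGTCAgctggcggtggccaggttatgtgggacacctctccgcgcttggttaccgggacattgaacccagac
Map1lc3b: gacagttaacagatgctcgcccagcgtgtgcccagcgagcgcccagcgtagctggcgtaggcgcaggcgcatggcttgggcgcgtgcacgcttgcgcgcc
Gabarapl1: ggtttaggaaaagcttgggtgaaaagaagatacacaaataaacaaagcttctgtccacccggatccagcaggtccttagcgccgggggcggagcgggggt
Sqstm1: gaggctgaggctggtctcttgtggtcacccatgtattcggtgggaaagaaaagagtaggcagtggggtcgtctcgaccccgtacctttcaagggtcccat
Calcoco1: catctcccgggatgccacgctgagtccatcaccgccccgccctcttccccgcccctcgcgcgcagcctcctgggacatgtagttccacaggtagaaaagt
Atg5: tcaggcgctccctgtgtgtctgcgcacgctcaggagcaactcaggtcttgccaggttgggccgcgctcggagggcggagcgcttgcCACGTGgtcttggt

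A set of 3 motifs was searched on both strands of the 300-base windows. The E-box CACGTG, bound by TFEB and related factors, was in 6 of the 42 member windows (14.3%), beside 7.15% of all 32851 windows. Its genes were Atg14, Atg3, Atg5, Atg7, Bnip3 and Rubcn, none of which passed the expression test. Its longer CLEAR form, in which GT precedes CACGTG and AC follows it, was in 0 member windows, beside 0.326% of all windows. TGACNNNGC, the core of the antioxidant response element bound by NRF2, was in 7 member windows (16.7%), beside 12.4% of all windows, and its genes were Atg13, Map1lc3b, Tax1bp1, Ulk2 and Vmp1. Of the 7 windows 3 belong to the 3 starts of Vmp1, so by gene the motif was in 5 of 35. Each Vmp1 window held 1 match, on the opposite strand, and the capital stretch above is 1 of these 3. The other 2, and the match in Map1lc3b, lie outside the stretches printed. The member windows were richer in G and C, with a median of 59.4% beside 52.4%. A match is a description of letters and not of binding.

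None of the 5 genes of the initiation kinase complex passed limma's test, and edgeR and DESeq2 called 0 as well, while 1 (Ulk1) had an unadjusted limma p under 0.05. Ulk1, the kinase that receives the starvation signal, had normalised counts of 2181, 1309 and 1434 in the Normal libraries and of 2538, 2100 and 2016 in the PVR libraries, given here and throughout in the order of replicates 1, 2 and 3. Normal replicate 1 lay inside the PVR range and the other 2 Normal libraries lay below it. The log2 difference was 0.46 (SE 0.19, 95% interval 0.03 to 0.90, limma adjusted p = 0.102). With the replicate number as a block the limma adjusted p of Ulk1 was 0.0122. Without Normal replicate 1, and with no block, the limma adjusted p was 0.00878, with a difference of 0.69. Either change alone was therefore enough for Ulk1 to pass, while with all libraries and no block it did not. Ulk2, its close relative, averaged 745 ± 81.5 (SD, n = 3) in Normal and 938 ± 177 in PVR. The scaffold gene Rb1cc1 (FIP200) averaged 859 ± 8.44 and 868 ± 143. Atg13, the regulatory subunit, averaged 1435 ± 87.2 and 1508 ± 133, and Atg101, which stabilises it, 281 ± 31.8 and 299 ± 28.3. The groups overlapped for all 5.

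Among the 6 genes of membrane supply and lipid transfer, 2 rose. Atg2a encodes a tube-shaped protein that moves lipid from the endoplasmic reticulum into the growing membrane (chromosome 19, 6241668 to 6262335, GRCm38). It had 844, 785 and 837 normalised counts in Normal and 1424, 1265 and 1318 in PVR. Every PVR library lay above every Normal library, and both groups were tight. Its log2 change came to 0.70 (SE 0.10, 95% interval 0.48 to 0.92, limma adjusted p = 0.000762). Its paralog Atg2b averaged 879 ± 59.4 in Normal and 901 ± 44.3 in PVR, a log2 difference of 0.04 with an interval of -0.19 to 0.27.

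Vmp1, a lipid scramblase of the endoplasmic reticulum that acts with ATG2 and ATG9 (chromosome 11, 86583865 to 86683836), had 860, 978 and 990 normalised counts in Normal and 1914, 1316 and 1191 in PVR. All PVR libraries were above Normal, with PVR replicate 1 far above the other 2. The log2 change was 0.62 (SE 0.17, limma adjusted p = 0.0229). Leaving out Normal replicate 1 or Normal replicate 3 ended that call (limma adjusted p = 0.0886 and 0.0539). Wipi1, which reads the lipid signal PI3P, had 3122, 3141 and 2989 in Normal and 3271, 3162 and 2983 in PVR, with overlapping groups and an interval of -0.19 to 0.24 for the log2 difference. Wipi2, the relative that recruits the conjugation complex, averaged 1391 ± 147 and 1529 ± 148. Atg9a, the scramblase of the seed vesicles, averaged 368 ± 23.2 and 428 ± 10.5, with PVR above Normal in all libraries but a limma adjusted p of 0.18.

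None of the 6 genes of the PI3-kinase complexes, which make PI3P, passed the test with limma, edgeR or DESeq2, and 0 had an unadjusted limma p under 0.05. Becn1 (Beclin 1), the regulatory core, had 1168, 1157 and 1082 normalised counts in Normal and 983, 825 and 1053 in PVR. All PVR libraries were below Normal, by a narrow gap. The log2 difference was -0.26 (SE 0.12, 95% interval -0.52 to 0.00, limma adjusted p = 0.12). Pik3c3, the catalytic subunit VPS34, averaged 411 ± 15.1 in Normal and 403 ± 48.6 in PVR. Atg14, the subunit that directs the complex to autophagosomes, averaged 325 ± 15.2 and 283 ± 36.5. Ambra1, an activator of Beclin 1, averaged 1252 ± 145 and 1056 ± 140.

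Uvrag and Rubcn belong to the form of the complex that works on endosomes and phagosomes. Uvrag averaged 512 ± 12.5 and 584 ± 32.2, with all PVR libraries above Normal and a limma adjusted p of 0.204. Rubcn (Rubicon), which favours LC3 attachment to phagosomes and restrains canonical autophagy, had 952, 1039 and 1052 in Normal and 1005, 1140 and 1047 in PVR. These groups overlapped, with a log2 difference of 0.07 (95% interval -0.16 to 0.30, limma adjusted p = 0.649).

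The 11 genes that conjugate ATG8 proteins or process them had 0 calls by limma, edgeR or DESeq2, and 0 with an unadjusted limma p under 0.05. Atg5, part of the ligase-like complex, had 338, 373 and 386 normalised counts in Normal and 359, 493 and 373 in PVR, with overlapping groups and a log2 difference of 0.15 (95% interval -0.19 to 0.48, limma adjusted p = 0.492). Atg7, the E1-like enzyme, had 597, 574 and 587 in Normal and 685, 694 and 623 in PVR. Every PVR value of Atg7 was above Normal, with a log2 difference of 0.19 (95% interval -0.04 to 0.42, limma adjusted p = 0.202). Atg16l2, a relative of Atg16l1 for which a role in canonical autophagy is unclear, was the least abundant and most variable member. It had 107, 96.3 and 42.6 normalised counts in Normal and 155, 144 and 80.3 in PVR. The groups overlapped, and replicate 3 was the lowest in both. The log2 difference was 0.67 (SE 0.39, 95% interval -0.23 to 1.56, limma adjusted p = 0.235), and with the replicate block limma's adjusted p was 0.039.

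The other conjugation genes differed little. Atg3, the E2-like enzyme for ATG8 proteins, averaged 803 ± 27.2 in Normal and 701 ± 10.3 in PVR, with PVR below Normal in all libraries and a limma adjusted p of 0.155. Atg10, the E2-like enzyme for ATG12, averaged 117 ± 22.5 and 133 ± 16.3, Atg12 itself 2255 ± 213 and 2092 ± 31.7, and Atg16l1, which places the complex on membrane, 530.3 ± 65.7 and 499 ± 7.30. Of the ATG4 proteases, which trim and release ATG8 proteins, Atg4a averaged 373 ± 33.6 and 332 ± 1.10, with PVR below Normal in all libraries and a limma adjusted p of 0.354. Atg4b averaged 921 ± 44.9 and 871 ± 48.8, Atg4c 468 ± 55.2 and 499 ± 26.1, and Atg4d 331 ± 50.9 and 296 ± 34.2.

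The ATG8 genes moved in opposite directions, with 2 of 5 higher and 1 lower. Map1lc3b encodes LC3B, the form most often used to mark autophagosomes (chromosome 8, 121590361 to 121598760). It had 1760.4, 1609 and 1914 normalised counts in Normal and 2750.4, 2879 and 2775 in PVR. All PVR libraries lay above Normal and close to each other. Map1lc3b rose by 0.67 on the log2 scale (SE 0.10, 95% interval 0.45 to 0.90, limma adjusted p = 0.00101). Map1lc3a encodes LC3A (chromosome 2, 155276297 to 155278073) and had 4890.5, 3917 and 5098 in Normal against 3036, 2416 and 3245 in PVR. Here all PVR libraries lay below Normal, with a log2 change of -0.68 (SE 0.14, 95% interval -1.001 to -0.357, limma adjusted p = 0.00614).

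Gabarapl1, an ATG8 gene of the GABARAP branch that FOXO factors are known to induce (chromosome 6, 129533160 to 129542346), had 1549, 1548 and 1543 normalised counts in Normal and 2640.2, 1814 and 2029 in PVR. The Normal libraries were nearly equal, and all PVR libraries were above them. The log2 change was 0.46 (SE 0.14, 95% interval 0.16 to 0.77, limma adjusted p = 0.0278). Leaving out Normal replicate 1, 2 or 3 or PVR replicate 1 ended the call, with limma adjusted p-values of 0.0779, 0.0625, 0.0728 and 0.0688. Gabarap had 3122, 3466 and 3554 in Normal and 3987, 4401 and 3752 in PVR, with no overlap and a log2 difference of 0.26 (95% interval 0.02 to 0.50, limma adjusted p = 0.0944). Gabarapl2 averaged 1132 ± 95.8 and 1154 ± 127, with overlapping groups.

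**Figure D2:**
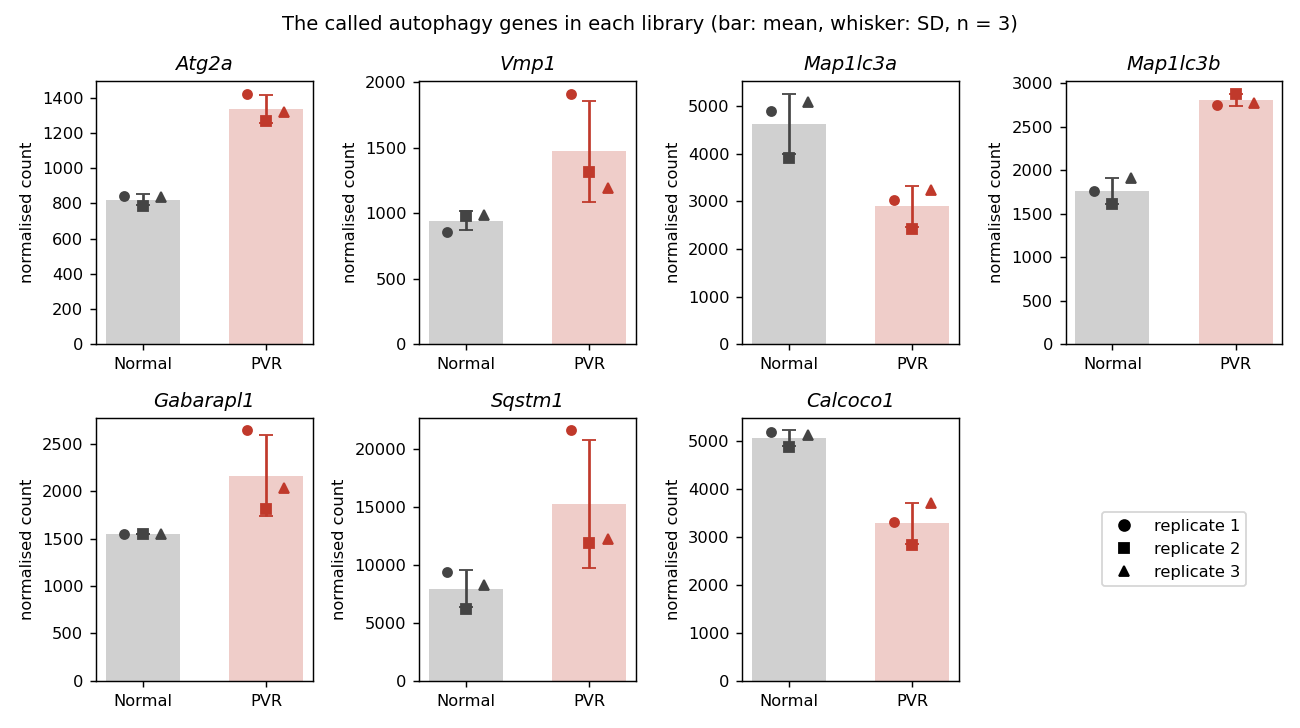
Normalised counts (y axes, from 0) of the 7 called autophagy genes in Normal and PVR, with bars at the mean, whiskers for the SD (n = 3) and a marker shape per replicate. PVR replicate 1 is the highest library for Vmp1 (1914), Gabarapl1 (2640.2) and Sqstm1 (21637), and the groups do not overlap in any panel.

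Levels within the ATG8 family were compared per kilobase of the longest coding transcript. In Normal, Map1lc3a was the highest at 4168 ± 567 normalised counts per kilobase (SD, n = 3), followed by Gabarap at 2502 ± 169 and Gabarapl1 at 849.8 ± 1.60. Gabarapl2 (675 ± 57.2) and Map1lc3b (669 ± 58.0) came last and did not differ beyond their spread. In PVR the order was Gabarap at 2995 ± 243, Map1lc3a at 2607 ± 388, Gabarapl1 at 1187 ± 235, Map1lc3b at 1064 ± 26.0 and Gabarapl2 at 688 ± 75.5, where neither Gabarap and Map1lc3a nor Gabarapl1 and Map1lc3b were separated by more than their spread. Per kilobase of all merged exons Map1lc3a stayed above Gabarap in PVR (2455 and 2195) and Map1lc3b was the lowest in both groups (234 and 373), so these ranks depend on the length used. The ratio of Map1lc3b to Map1lc3a per transcript kilobase was 0.152, 0.173 and 0.159 in Normal and 0.383, 0.503 and 0.361 in PVR. The summed level of the family overlapped between groups, at 8862, 8202 and 9530.4 per kilobase in Normal and 8947, 8144 and 8535 in PVR. Within that sum the share of Map1lc3a was 43.0% to 49.6% in Normal and 26.7% to 34.2% in PVR, and that of Map1lc3b was 7.45% to 7.63% and 11.7% to 13.4%. Per merged-exon kilobase the ratio was lower, at 0.0566, 0.0645 and 0.0590 in Normal and 0.142, 0.187 and 0.134 in PVR, and the share of Map1lc3b was 3.21% to 3.26% and 5.25% to 6.21%. By either length the shares of these 2 genes did not overlap between the groups, while the sum did.

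**Figure D3:**
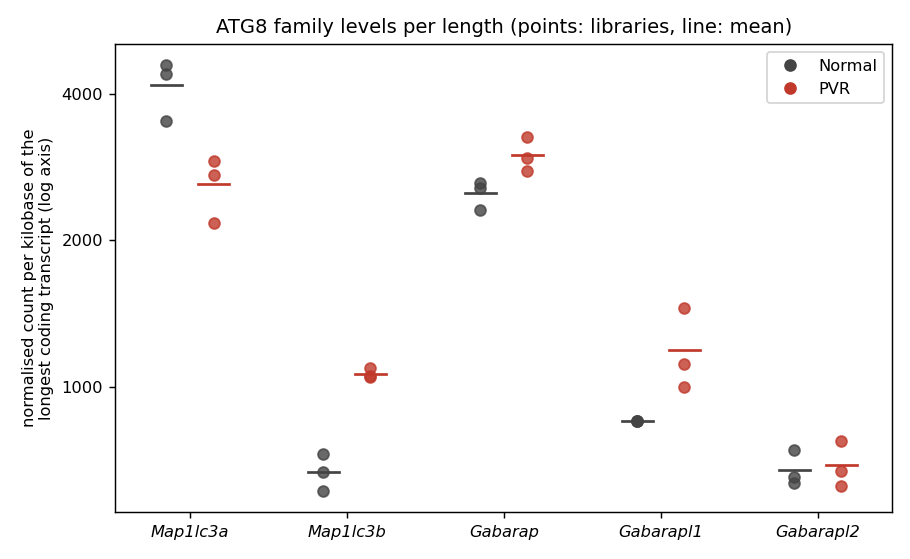
Normalised counts per kilobase of the longest coding transcript (y axis, log scale) of the 5 ATG8 genes, where points are libraries and lines are means of 3. Map1lc3a is below its Normal level in all PVR libraries (means 4168 and 2607) and Map1lc3b above it (669 and 1064).

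Of the 5 cargo receptor genes 1 rose and 1 fell. Sqstm1 (p62, which carries ubiquitinated cargo and is itself degraded by autophagy, chromosome 11, 50199366 to 50210827) had 9371, 6241 and 8271 normalised counts in Normal and 21637, 11904 and 12240.2 in PVR. All PVR libraries lay above Normal, and PVR replicate 1 stood far above the other 2. The log2 change was 0.90 (SE 0.26, 95% interval 0.29 to 1.51, limma adjusted p = 0.0362), the largest among the members. Its limma adjusted p was 0.0756 without Normal replicate 2, 0.0868 without Normal replicate 3, 0.0509 without PVR replicate 3 and 0.149 with no filter on low counts, and each of these ends the call. Sqstm1 took 9.96% to 13.9% of all normalised counts of the 42 genes in Normal and 17.2% to 25.9% in PVR.

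Calcoco1, a receptor for the turnover of endoplasmic reticulum and Golgi (chromosome 15, 102706777 to 102722178), had 5182, 4864 and 5109.8 normalised counts in Normal and 3299, 2835 and 3700.4 in PVR. All PVR libraries were below Normal, with a log2 change of -0.63 (SE 0.12, 95% interval -0.89 to -0.37, limma adjusted p = 0.00298). Nbr1, a receptor that works with p62, averaged 2849 ± 51.8 in Normal and 2846 ± 69.9 in PVR, a log2 difference of -0.00 with an interval of -0.21 to 0.20. Optn (optineurin), which takes part in mitophagy, averaged 2025 ± 47.0 and 1780.2 ± 199, with overlapping groups. Tax1bp1, a receptor for protein aggregates, averaged 4926 ± 197 and 5424 ± 272, with PVR above Normal in all libraries and a limma adjusted p of 0.312.

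None of the 4 mitophagy genes passed the test with limma or edgeR, while 1 (Bnip3l) had an unadjusted limma p under 0.05 and was the 1 gene that DESeq2 called. Bnip3l (NIX), a receptor on the mitochondrial outer membrane, had 2363, 2567 and 2708 normalised counts in Normal and 3118, 3059 and 3077 in PVR. All PVR libraries were above Normal and close together. The log2 difference was 0.28 (SE 0.10, 95% interval 0.06 to 0.50, limma adjusted p = 0.0533), and DESeq2 on the recovered reads gave an adjusted p of 0.043. Bnip3, its hypoxia-inducible relative, had 236, 264 and 292 in Normal and 281, 302 and 275 in PVR, with overlapping groups. Fundc1, another outer membrane receptor, averaged 751 ± 120 and 652 ± 60.5, and Pink1, the kinase that marks damaged mitochondria, 3405 ± 315 and 3400.0 ± 735. Both overlapped between groups.

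**Figure D4:**
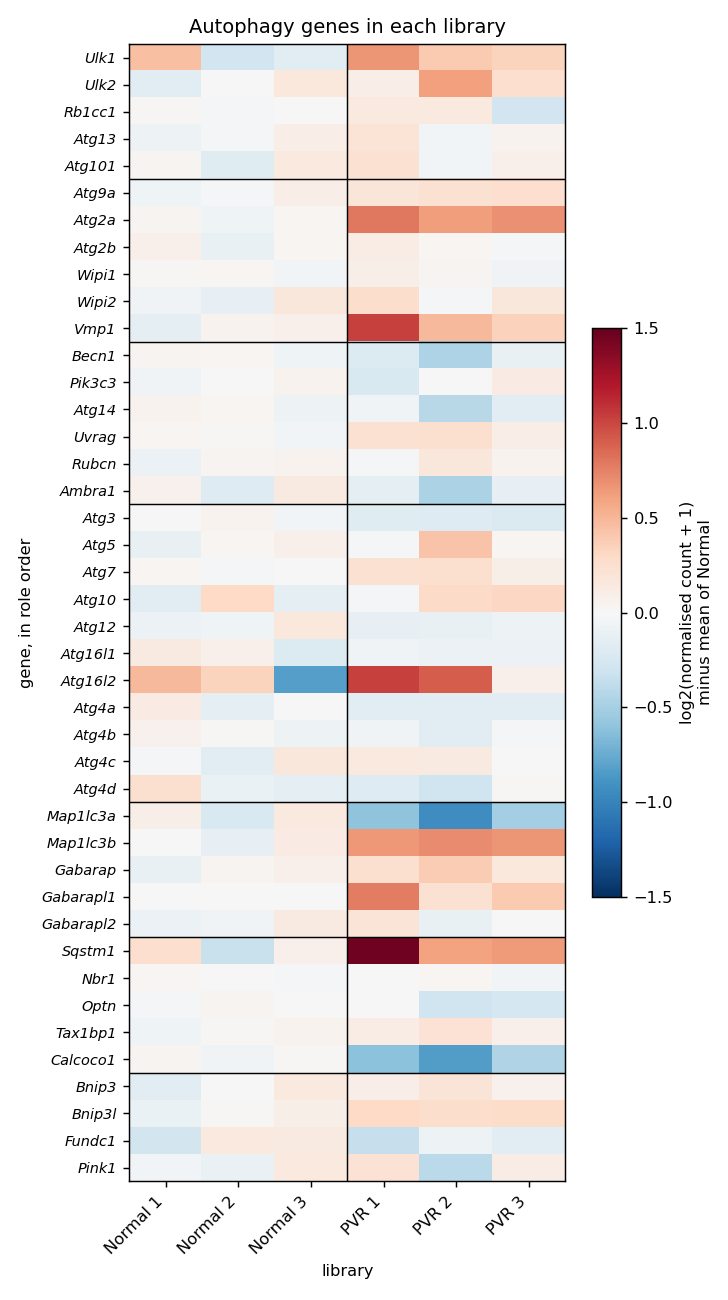
Log2(normalised count + 1) of each of the 42 genes (y axis, in role order) in each library (x axis) minus the Normal mean, shown by colour. Atg2a, Vmp1, Map1lc3b, Gabarapl1 and Sqstm1 are above the Normal mean in all 3 PVR libraries, and Map1lc3a and Calcoco1 are below it.

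Some called genes share exon bases with a neighbour, and the labels do not state whether the counting used strand. Sqstm1 shares 580 bases with Mrnip, which had 26.2 to 54.6 normalised counts per library. Gabarapl1 shares 570 bases with 1700101I11Rik, at 6.48 to 16.5. Map1lc3b shares 58 bases with Zcchc14, which itself rose by 0.39 on the log2 scale (limma adjusted p = 0.032), a call lost when Normal replicate 2 or 3 or PVR replicate 1 or 2 was left out. Among genes not called, Becn1 shares 3104 bases with Cntd1, which fell from 17.2 to 3.73 normalised counts (limma adjusted p = 0.0201). Uvrag shares 1589 bases with Gm45187, at 0 to 3.70, and Atg4d shares 1405 with Kri1, at 138 to 209. Atg4a, Bnip3, Bnip3l and Gabarapl2 have pseudogene copies at 95% identity or more over at least 300 bases, so their values are uncertain to that extent. The copy Bnip3l-ps had 126 to 220 normalised counts, with a log2 difference of 0.36 (limma adjusted p = 0.237). Pseudogene copies of Atg4a, Bnip3 and Gabarapl2 with values had 0 to 8.50. Uvrag matches parts of Klhl20, Mettl6 and Txndc16 by the same rule. Mettl6 rose (limma adjusted p = 0.0423), and Klhl20 and Txndc16 were not called.

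The wider pathway was read from 6 lists of other genes. Of 80 tested genes 20 rose (25%) and 12 fell (15%), beside 17.9% and 12.9% of all tested genes, and 6 of the 20 that rose are the NADPH oxidase genes described last. The mTORC1 and AMPK list, whose proteins set ULK1 activity, had 2 genes higher and 5 lower of 28. Mtor, the growth kinase that inhibits ULK1, had 5654, 5698 and 6468 normalised counts in Normal and 2333, 2469 and 3399 in PVR, with no overlap. Its log2 change was -1.14 (SE 0.15, limma adjusted p = 0.000501), a larger change than that of any of the 42 autophagy genes. Fnip2, a folliculin partner in lysosomal mTORC1 signalling, rose by 1.53 on the log2 scale, from 421 ± 21.5 to 1252 ± 351 (limma adjusted p = 0.000713). Prkaa2, the catalytic alpha2 subunit of AMPK, fell from 1426 ± 55.2 to 1038 ± 119 (log2 change -0.46, limma adjusted p = 0.0114). Rragd, a Rag GTPase, fell by 0.55, from 5904 ± 626 to 4055 ± 655 (limma adjusted p = 0.0134), but failed the test when Normal replicate 3 (0.0519) or PVR replicate 1 (0.0513) was removed.

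In the list of transcriptional regulators 3 of 7 rose and 1 fell. Tfeb, the activator of lysosome and autophagy genes, had 337, 416 and 353 normalised counts in Normal and 613, 624 and 535 in PVR. The groups did not overlap, and the log2 change was 0.68 (SE 0.13, limma adjusted p = 0.00327). Foxo1, another activator, rose from 341 ± 50.2 to 485 ± 18.6 with a log2 change of 0.52 (limma adjusted p = 0.0177), which no longer passed once Normal replicate 1 (0.063) or PVR replicate 1 (0.0512) was removed. Zkscan3, described as a repressor of the same gene set, fell from 1879 ± 494 to 1128 ± 132 with a log2 change of -0.71 (limma adjusted p = 0.0241), and leaving out Normal replicate 1 or 2 or PVR replicate 2 or 3 ended that call. Tfec, a TFEB relative expressed in RPE and macrophages, rose by 2.35, from 8.47 ± 5.50 to 52.4 ± 33.1 (limma adjusted p = 0.0248), but failed the test when Normal replicate 1 or 3 or PVR replicate 1 or 2 was removed.

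Fusion with the lysosome was read from 14 genes, of which 3 rose and 1 fell. Vamp8, a SNARE of the fusion step, fell from 4463 ± 233 to 2411 ± 580.3 (log2 change -0.92, limma adjusted p = 0.00394). Ykt6, a SNARE that acts in parallel, rose by 0.49 on the log2 scale, from 1143 ± 31.9 to 1607 ± 192 (limma adjusted p = 0.00862). Plekhm1, an adaptor that links LC3 to the late endosome tether, rose by 0.74, from 533 ± 41.4 to 896 ± 133 (limma adjusted p = 0.00234). Tecpr1 rose from 2341 ± 207 to 3109 ± 293, a call lost when Normal replicate 1 or 2 or PVR replicate 1 or 3 was left out.

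Of 14 further genes of autophagosome formation 5 rose and 2 fell. Irgm1, an interferon-inducible GTPase, rose from 368 ± 24.8 to 883 ± 310, a log2 change of 1.20 (limma adjusted p = 0.00464, or 0.0653 with replicates 1 and 2 only), and Trp53inp1, an ATG8-binding stress protein, from 305 ± 45.4 to 489 ± 14.9. Bcl2, the survival protein that binds Beclin 1, fell from 547 ± 38.8 to 349 ± 20.6, and Ei24 from 1554 ± 168 to 1037 ± 70.7. Among 11 tested further receptors 1 rose and 3 fell. Retreg1 (FAM134B), a receptor for sheets of the endoplasmic reticulum, rose by 2.15 on the log2 scale, from 113 ± 29.4 to 497 ± 93.1 (limma adjusted p = 0.000171), while Rtn3, which acts on its tubules, fell by 0.93, from 24307 ± 1801 to 12804 ± 1014 (limma adjusted p = 0.000382). Other receptors for this organelle in the list did not pass, with log2 differences of 0.23 for Sec62 (limma adjusted p = 0.165) and -0.15 for Tex264 (0.292). Ccpg1 was too low for the test. Tollip also fell, from 3277 ± 273 to 2519 ± 249 (limma adjusted p = 0.03), as did Usp30, from 1073 ± 41.1 to 874 ± 25.7 (0.0404). The Tollip call was lost when Normal replicate 2 or 3 or PVR replicate 1 or 2 was left out. That of Usp30 was lost when any 1 library was left out. All 6 genes of the phagocyte NADPH oxidase, which drives LC3 attachment to phagosomes in macrophages, rose, with log2 changes of 2.35 to 5.29. Rac2 went from 7.35 ± 3.37 to 329 ± 144 and Cybb from 79.2 ± 21.8 to 1033 ± 421.

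**Figure D5:**
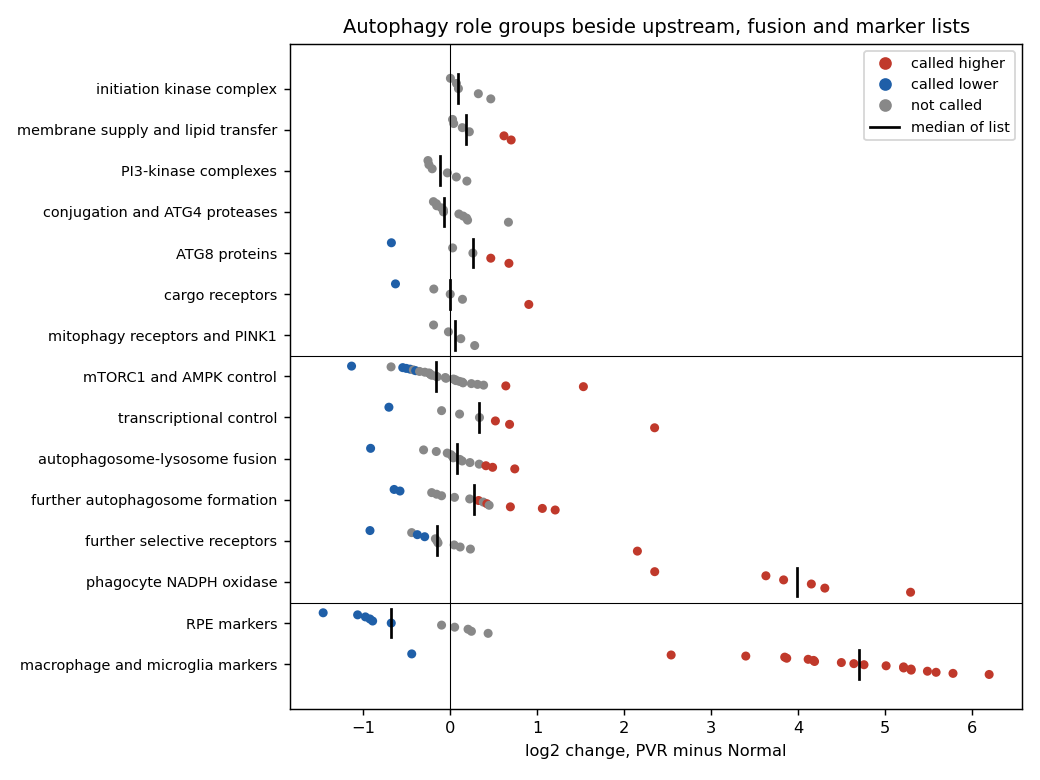
Log2 change (PVR minus Normal, x axis) of every tested gene in the autophagy role groups, the wider pathway lists and the RPE and macrophage marker lists (y axis), where black lines are list medians and colour gives the call. The autophagy role groups have medians between -0.12 and 0.26, beside 3.99 for the NADPH oxidase list and 4.70 for macrophage markers.

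Markers of macrophages and microglia differed between the groups as well. Of the 20 markers 19 rose and Csf1r fell, from 10038 to 7392 normalised counts and this call failed when Normal replicate 3, PVR replicate 1 or PVR replicate 2 was removed. The summed level of the list was 10946 to 12304 in Normal and 41120.1 to 100367 in PVR, and no marker was at 0 in any library. Without Csf1r the sum was 2452, 1355 and 1123 in Normal and 69973, 92792 and 32885 in PVR. PVR replicate 3, the lowest PVR library by this sum, was also the lowest PVR library for 74.1% of the 2825 genes called higher, and for 1 of the 5 called-higher autophagy genes, Vmp1. The sum of the RPE markers was 796298 to 852666 in Normal and 564832 to 616309 in PVR. This sum includes Ttr, which averaged 262990 in Normal and 302541 in PVR, with every PVR library above Normal. Ttr was not called (limma adjusted p = 0.215), while 6 of the 11 RPE markers fell. The sum of the stromal markers was 9209 to 11725 in Normal and 20868 to 29551 in PVR. The part of these cell markers in the changes of the autophagy genes, the NADPH oxidase genes and the other lists was not tested.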

How the data were processed

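Polyadenylated RNA of 6 libraries was measured. The deposited tables hold a signal per gene, in normalised counts: the authors divided reads by a size factor for each library, as the values show (100% of them gave whole reads within 0.001 reads). Genome build mm10 and the tool DESeq2 are named, per the submitters' processing notes. Aligner, counting program and annotation: not given in the sources used here. Groups came from the sample titles.

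The test was limma 3.58.1 (R 4.3.3, trend and robust) on log2(normalised count + 1) over 15766 genes that passed filterByExpr of edgeR (minimum count 10), with Benjamini-Hochberg adjustment over all of them and no replicate block. On the recovered reads edgeR 4.0.16 called 4706 genes and DESeq2 1.42.0 called 4824, beside 4858 by limma. Scripts were tested on simulated data. The 3-read floor was 2.72 to 3.42 normalised counts, and such limits cover counting error only. No libraries were duplicates (chi-square of at least 17.8 per gene). Same-numbered libraries deviated together from their group means (correlations 0.206, 0.195 and 0.179, by the numbers in the titles). The replicate block is therefore printed where it changed the call of an autophagy gene.

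Coordinates and lengths are from GENCODE M21 (GRCm38). Members and gene lists were chosen with earlier results of these data known. Per-library values are given for called genes, for the largest difference in each role and for Ulk1, Becn1, Rubcn, Atg5, Atg7, Map1lc3a, Map1lc3b, Gabarapl1, Sqstm1, Bnip3 and Wipi1. In each other list up to 4 called genes with the smallest p are named, and Mtor, Tfeb and Cybb have values chosen after they were seen. Alternatives covered the pseudocount, filter, scaling, tool, block and left-out libraries. Tables and figures were made with pandas 2.3.3 and matplotlib 3.10.9 in Python 3.11.15.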

Additional observations from a re-analysis of the deposited data

How the results depend on the processing

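Over 18 alternatives none of the 7 called autophagy genes changed direction, and 4 (Atg2a, Map1lc3a, Map1lc3b and Calcoco1) passed the test in each. Of the 35 that did not pass, 3 passed somewhere (Ulk1, Atg16l2 and Bnip3l) and 9 changed sign somewhere. Leaving out 1 library at a time gave 2 to 5 genes higher (2 without Normal replicate 3, 3 without Normal replicate 2) and 2 lower each time, a median log2 change of 0.027 to 0.11, and 3566 to 4775 called genes in all. In the wider pathway lists it gave 15 to 19 genes higher and 7 to 11 lower, with 7 without PVR replicate 1. With replicates 1 and 2 only, 3 autophagy genes were higher and their median was 0.12. Leaving out both Normal replicate 2 and PVR replicate 3 gave 3 higher. Scaling to library totals moved the median to -0.0053 and the higher share of all calls from 58.2% to 50.7%. The cause of these shifts was not tested. With the replicate block 7 autophagy genes were higher and 2 lower, of 5328 called genes. It added Ulk1 and Atg16l2 and changed no other autophagy call. In the wider pathway lists the block gave 21 genes higher and 13 lower, beside 20 and 12 without it.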

Other observations

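Stbd1, a glycogen-binding receptor, was too low for the test. Its Normal libraries held 1, 4 and 2 reads and its PVR libraries 39, 8 and 13 (replicates 1, 2 and 3), so every PVR library was above every Normal library at depths that fix neither level well. Ddit4 (REDD1), a stress-induced brake on mTORC1, had 4822, 1972 and 2721 normalised counts in Normal and 1876, 1423 and 2343 in PVR, with overlapping groups and a limma adjusted p of 0.22. Both genes were chosen after their values were seen.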
